A study of Mus musculus with 12 samples.

Results

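The muscle miRNAs described here are 7 miRBase hairpins of miRNAs known from muscle: mmu-mir-143 and mmu-mir-145a, and mmu-mir-1a-1, mmu-mir-1a-2, mmu-mir-133a-1, mmu-mir-133a-2 and mmu-mir-206. They were chosen by name from the 1050 miRNA hairpins that had a read in any of the 12 small RNA libraries, and all 7 had reads. The libraries came from sperm and from TM4 cells. Sperm was taken from the epididymis of C57BL6/J male mice fed a control diet (CD, 16% of energy from fat) or a high-fat diet (HFD). The HFD held 69% by the sample labels and a smaller share by the methods. Diets were fed for 7 weeks from 4 weeks of age, while a figure legend gives a later starting age. There were 3 libraries per diet, and each pooled the sperm of 3 mice. TM4 is a mouse Sertoli cell line of the testis, with 2 libraries each of non-treated cells (Ctrl), cells given 10 µM Compound C (CC), an inhibitor of the kinase AMPK, for 12 h, and cells that overexpressed the ribonuclease angiogenin from a plasmid (Ang OE). The Ctrl cells are described as non-treated, so the plasmid and Ang itself cannot be told apart. Neither can CC itself and the handling that came with its addition. Nothing in the sources says that the TM4 replicates were separate cultures, and p-values then measure the spread between these samples, which may be technical. Values are estimated reads per hairpin, with both arms together, divided by all miRNA reads of the library and multiplied by 1000000 (CPM).

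A miRNA hairpin is cut into a short mature strand, whose seed near the 5′ end pairs with target messenger RNAs. mir-143 and mir-145 are transcribed together and are known from smooth muscle and from fibroblasts and other mesenchymal cells. mir-1 and mir-133 are the classical miRNAs of heart and skeletal muscle and are cut from shared transcripts, while mir-206 is known from skeletal muscle and lies beside mir-133b. mir-1 limits the growth of muscle precursors and mir-133 favours it, and mir-206 belongs to the mir-1 family through its seed.

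Mature sequences are shown for the hairpins that the sperm and TM4 levels below set apart, mir-1a in sperm and mir-206 in TM4 cells, and for mir-133b, the neighbour of mir-206. RefSeq entries for build GRCm38.p6 were matched for 2 of the 7 members, mir-1a-1 and mir-206. All strands are plus, the sequences run 5′ to 3′, and capitals mark the seed, bases 2 to 8.
mmu-miR-1a-1-5p: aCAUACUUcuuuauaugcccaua
mmu-miR-206-5p: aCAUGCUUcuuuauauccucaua
mmu-miR-206-3p: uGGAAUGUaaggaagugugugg
mmu-miR-133b-5p: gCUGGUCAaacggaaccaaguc
mmu-miR-133b-3p: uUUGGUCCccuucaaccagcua
The 5p strands of mir-206 and mir-1a-1 differed at 3 of 23 positions, G5A, C17G and U19C, counted from 1 at the 5′ end with the base of mir-206 first. The first of these lies in the seed, so the 5p seeds of the pair are not the same. No 3p strand of mir-1a was matched, so the 3p seeds of the pair were not compared. miR-1a-1-5p lies at chr2:180389057-180389079, miR-206-5p at chr1:20679017-20679039 and miR-206-3p at chr1:20679055-20679076. The strands of mir-133b lie at chr1:20682797-20682818 and chr1:20682834-20682855.

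The members stand in pairs on the genome. In GRCm38.p6, mir-1a-1 and mir-133a-2 are separated by 9254 bp on chromosome 2, and mir-206 and mir-133b by 3686 bp on chromosome 1. On chromosome 18, mir-143 and mir-145a are 1301 bp apart, and mir-1a-2 and mir-133a-1 are 2504 bp apart. The reads of mir-133a-1 and mir-133a-2 were equal in 11 of the 12 libraries and differed by a ratio of 1.0045 in the remaining one. Their shared mature sequence does not let reads be placed on either hairpin, so the pair is a single measurement listed at both hairpins, and so is nearly all of mir-1a.

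Each sperm library held 11412945 to 14822686 miRNA reads and each TM4 library 27651384 to 35704399. Replicates of all groups differed by more than counting noise. The 6 fixed testis germ cell miRNAs summed to 2934 to 8359 CPM in sperm against 934 to 2045 CPM in TM4 cells. Of the list, mir-741, mir-871 and mir-880 were at 0 to 0.593 CPM in TM4 cells, while mir-34b was at 59.8 to 81.6 CPM, mir-449a at 9.95 to 17.8 CPM and mir-34c at 853 to 1956 CPM there, and mir-34c overlapped its 1441 to 2762 CPM in sperm. mir-10b alone took 38.3% to 44.3% of the miRNA reads in sperm and 11.0% to 12.5% in TM4 cells, and CPM are shares of a fixed total. The sperm libraries also held hairpins known from other cells, and where these reads came from was not tested. The 5 epithelial hairpins of the mir-200 family summed to 8946 to 14327 CPM in sperm against 1.28 to 2.38 CPM in TM4 cells, the red blood cell pair mir-451a and mir-144 to 1257 to 2570 CPM against 0.247 to 1.12, and the 3 white blood cell hairpins to 580 to 1422 CPM against 2.23 to 4.30. The methods describe the release of sperm from cut epididymis and centrifugation, without a lysis of other cells. The part of such cells in the sperm values below was not tested, and in pooled tissue fewer cells and less RNA per cell cannot be told apart.

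mir-143 was among the most abundant miRNAs in both kinds of sample. In CD sperm it stood at 50518, 42253 and 33223 CPM and in HFD sperm at 30211, 51684 and 55754 CPM, which is 3.02% to 5.58% of all miRNA reads and rank 3 to 5 among the hairpins. In TM4 cells the Ctrl libraries held 54354 and 48544 CPM, the CC libraries 49978 and 72214 CPM and the Ang OE libraries 93152 and 127843 CPM. Both Ang OE libraries lay above every other library of the series, and in one of them mir-143 was the hairpin with the most reads. The means were 110497 ± 24530 CPM in Ang OE (SD, n = 2), 61096 ± 15723 in CC (n = 2), 51449 ± 4108 in Ctrl (n = 2), 45883 ± 13724 in HFD sperm (n = 3) and 41998 ± 8650 in CD sperm (n = 3). In this order the neighbours from CC down to CD sperm overlapped, and Ang OE alone stood clear.

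mir-145a, its partner on the same transcript, was much lower and ordered the samples differently. It stood at 436, 442 and 372 CPM in CD sperm and at 401, 321 and 365 CPM in HFD sperm. In TM4 cells Ctrl held 1213 and 1171 CPM, CC 1444 and 1251 CPM and Ang OE 1404 and 1196 CPM. All TM4 libraries were above all sperm libraries on this scale, and Ang OE overlapped both Ctrl and CC. The means were 417 ± 39.0 CPM in CD sperm, 363 ± 39.7 in HFD sperm, 1300 ± 147 in Ang OE, 1347 ± 136 in CC and 1192 ± 30.0 in Ctrl.

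**Figure D1:**
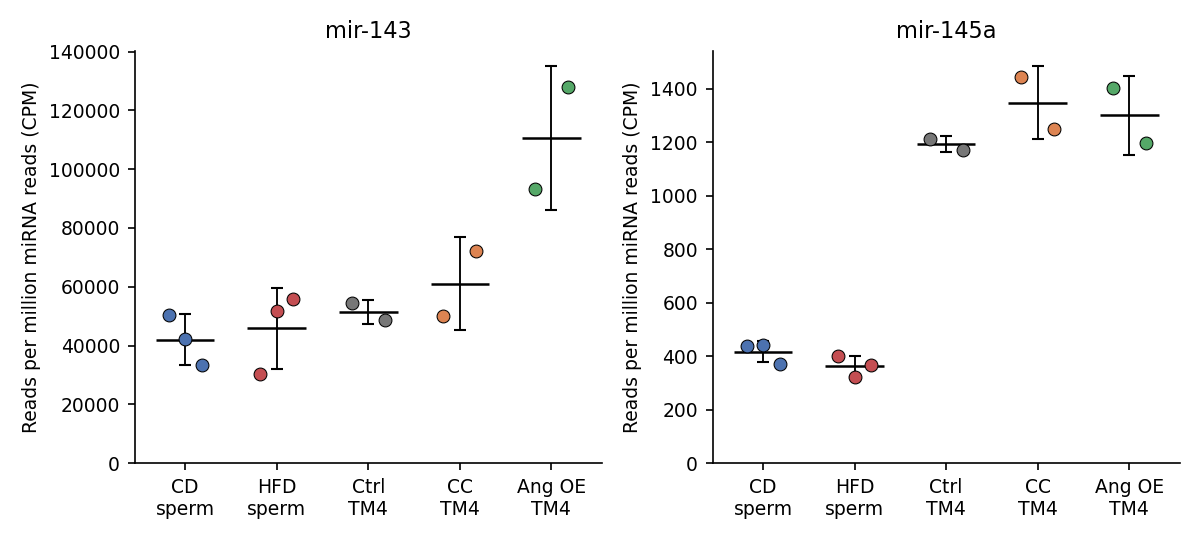
mir-143 (left) and mir-145a (right) in each of the 12 libraries, in CPM (linear axes from 0), by group. Points are libraries, the long bar is the group mean and the whiskers are 1 SD. Both Ang OE libraries of mir-143, at 93152 and 127843 CPM, lie above all others, while for mir-145a all TM4 libraries lie above all sperm libraries and Ang OE overlaps Ctrl.

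The ratio of the reads of the pair shows the same split within a library, free of the denominator. It was computed after the levels had been seen. In CD sperm there were 116, 95.6 and 89.4 reads of mir-143 for each read of mir-145a, and in HFD sperm 75.4, 161 and 153. In TM4 cells the Ctrl ratios were 44.8 and 41.5, the CC ratios 34.6 and 57.7 and the Ang OE ratios 66.4 and 107. Both Ang OE ratios exceeded all Ctrl and CC ratios, and all sperm ratios exceeded those of Ctrl and CC. The log2 ratio differed by 0.97 between Ang OE and Ctrl and by 0.91 between Ang OE and CC (2-sided exact permutation p = 0.333 for each, the smallest that 2 libraries against 2 can give). Between CC and Ctrl it differed by 0.05 (exact permutation p = 1), and between HFD and CD by 0.30 (exact permutation p = 0.4, where 0.1 is the smallest possible). With 4 such comparisons none could pass a threshold of 0.05.

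**Figure D2:**
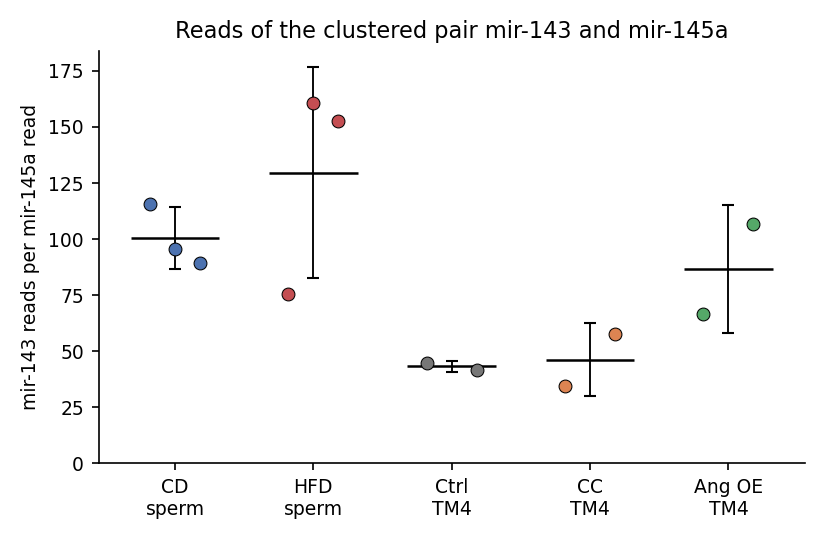
Reads of mir-143 per read of mir-145a in each library (linear axis from 0), with the group mean (long bar) and 1 SD (whiskers). The HFD libraries range from 75.4 to 161 around the CD libraries, and both Ang OE libraries, at 66.4 and 107, lie above the Ctrl and CC libraries.

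The members known from heart and skeletal muscle, mir-1a, mir-133a and mir-206, were scarce. mir-133a, both hairpins together, was the highest of the 3 in sperm, at 32.9, 39.0 and 31.4 CPM on the CD and 40.1, 33.2 and 46.8 CPM on the HFD. In TM4 cells Ctrl held 0.592 and 0.635 CPM, CC 0.832 and 0.422 CPM and Ang OE 0.186 and 0.178 CPM, from 6 to 25.3 reads a library. Every sperm library was above every TM4 library. mir-133b was at 7.33 to 12 reads in each sperm library and at 0 to 7.33 reads in each TM4 library.

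mir-1a, from both hairpins, had 26, 13 and 30 reads in the CD libraries and 11, 30 and 34 in the HFD libraries, which is 0.789 to 2.42 CPM. It had 0 reads in 5 TM4 libraries and 3 reads in Ang OE replicate 2. A count of 0 allows up to 3 reads, a level of 0.0840 to 0.108 CPM in these libraries, for counting error only. For each read of mir-1a, sperm held 13.7 to 50.8 reads of mir-133a, although the hairpins lie in the same clusters.

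mir-206 went the other way. It had 1, 2 and 0 reads in CD sperm and 3, 0 and 2 reads in HFD sperm, at most 0.215 CPM. In TM4 cells Ctrl had 52 and 78 reads (1.85 and 2.18 CPM), CC had 135 and 128 (4.43 and 4.63 CPM) and Ang OE had 128 and 71 (3.96 and 2.11 CPM). All TM4 libraries were above all sperm libraries, and CC was above Ctrl in both libraries. Beside 52 to 135 reads of mir-206, the neighbouring mir-133b had 0.33 and 1.33 reads in Ctrl, 4.67 and 7.33 in CC and none in Ang OE.

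**Figure D3:**
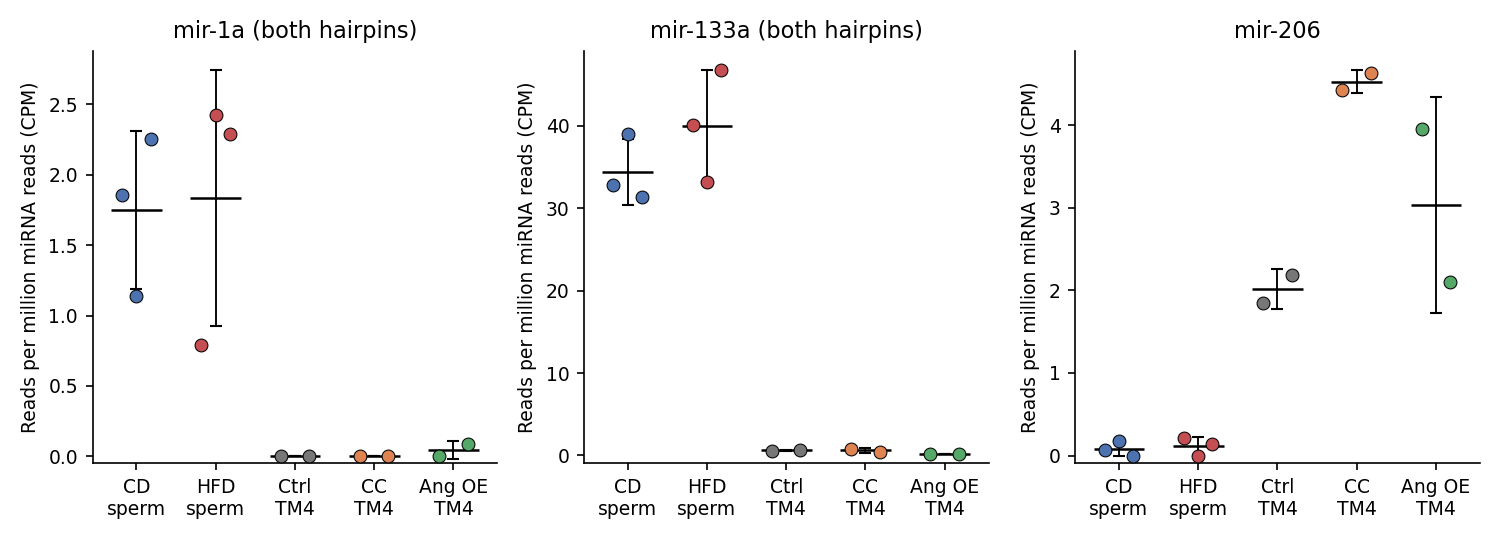
mir-1a and mir-133a (each as the sum of its hairpins) and mir-206 in each library, in CPM (linear axes from 0 with different ranges), with the group mean (long bar) and 1 SD (whiskers). mir-133a reaches 31.4 to 46.8 CPM in sperm and at most 0.832 CPM in TM4 cells, while mir-206 reaches at most 0.215 CPM in sperm and 1.85 to 4.63 CPM in TM4 cells.

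The first comparison asks whether the diet moved these miRNAs in sperm. No member was called: of the 6 members with enough reads to be tested, 0 passed an adjusted p under 0.05 (edgeR quasi-likelihood test, Benjamini-Hochberg over 451 hairpins), where 0 of all hairpins (0%) passed. Among all hairpins 31 had an unadjusted p under 0.05, none of them a member, and DESeq2 called 8 hairpins, 1 higher and 7 lower. The log2 fold change of mir-143 was 0.02 ± 0.27 (SE; adjusted p = 0.989 by edgeR), and its libraries spanned 1.85-fold within the 6 sperm samples. The log2 fold change of mir-145a was -0.31 ± 0.17 (unadjusted p = 0.0953, adjusted p = 0.989 by edgeR), and the CD and HFD libraries overlapped. For mir-133a, summed over both hairpins before the fit, it was 0.11 ± 0.19, and for mir-1a -0.07 ± 0.47, both with an adjusted p of 0.988 by edgeR. mir-206 had too few reads for a test. The median over the 6 members tested was -0.0036 on the log2 scale and over all hairpins -0.01. The sign of mir-143 and of the mir-1a hairpins depended on the scaling or on single libraries, and no direction is given for them. The summed white blood cell hairpins were higher in all HFD libraries (780 to 1422 CPM) than in the CD libraries (580 to 676 CPM), with 0 of 3 called. mir-142a carried this sum, at a mean of 886 CPM on the HFD against 527 CPM on the CD, while mir-223 and mir-150 overlapped between the diets. Of the 6 testis germ cell hairpins 0 were called and all overlapped between the diets, with a median log2 fold change of -0.55. mir-871 among them had the largest difference, -1.20 ± 0.51 (unadjusted p = 0.0423, adjusted p = 0.663 by edgeR).

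Of the 11 other muscle miRNAs, 4 had enough reads in sperm and 0 were called. They were mir-486a and mir-486b, known also from red blood cells, at 11543 to 24088 CPM, mir-22, of heart and skeletal muscle among other tissues, at 14105 to 22187 CPM, and mir-378a, which is cut from an intron of a regulator of mitochondria, at 552 to 660 CPM. mir-208b, from an intron of a slow myosin gene, had 2 to 6 reads in each sperm library and none in TM4 cells, and mir-499, from an intron of another myosin gene, 1 to 7 reads in sperm. mir-208a of heart muscle and mir-133c had no read in any library, which allows at most 3 reads each per library.

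In TM4 cells given CC, mir-206 rose and no other member passed the test. From 1.85 and 2.18 CPM in Ctrl it went to 4.43 and 4.63 CPM, a 2.24-fold rise (log2 fold change 1.16 ± 0.25, adjusted p = 0.0103 by edgeR). Thus 1 of the 5 members tested, 2 of which are the equal mir-133a hairpins, was called, where 22 of 533 hairpins (4.13%) were called, 12 of them higher (2.25%) and 10 lower (1.88%). The rise was at least 1.14 on the log2 scale under every other scaling, filter and batch setting tried. Without CC replicate 1 or 2 it was 1.16 and 1.14, with adjusted p = 0.113 and 0.188 by edgeR, and then no hairpin at all was called, while 76 and 68 had an unadjusted p under 0.05. mir-143 changed by 0.25 ± 0.16 (adjusted p = 0.449 by edgeR), and 1 CC library lay among the Ctrl libraries. Without CC replicate 2 that value was -0.03. mir-145a was higher in both CC libraries than in both Ctrl libraries, by 0.18 ± 0.11 on the log2 scale (adjusted p = 0.407 by edgeR). mir-133a changed by 0.02 ± 0.52 (adjusted p = 0.987 by edgeR). The median over the 5 members tested was 0.18 and over all hairpins -0.03. Among the other muscle miRNAs, 0 of the 5 tested rose and 2 fell, mir-486a by 0.54 and mir-486b by 0.54 on the log2 scale (adjusted p = 0.00391 for each by edgeR). These 2 hairpins share nearly all of their reads.

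In cells that overexpressed Ang, mir-143 rose the most among the members. It was 2.61-fold above Ctrl (log2 fold change 1.38 ± 0.16, adjusted p = 4.08e-06 by edgeR), with 93152 and 127843 CPM against 54354 and 48544. The call held under the other tests, scalings, filters and batch settings tried, with values from 1.1028 to 1.4128. Among these, the filters, genome-matched reads and summed hairpins left the reads of mir-143 unchanged. With 1 library left out the value was 1.07 to 1.54. In total 3 of the 5 members tested were called, all higher, where 204 of 533 hairpins (38.3%) were called, 129 of them higher (24.2%) and 75 lower (14.1%). That split moves with the scaling: with total miRNA reads as library size 81 were higher and 139 lower, and with clean reads without rRNA 98 and 103, as the median of all hairpins moved by -0.27 and -0.14. The median over the 5 members was 0.40 and over all hairpins 0.06 on the TMM scale.

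The other 2 calls were less firm. mir-145a was called higher by 0.40 ± 0.11 (adjusted p = 0.00776 by edgeR), although its CPM overlapped between Ang OE and Ctrl. With total miRNA reads as library size its difference was 0.13 (adjusted p = 0.411 by edgeR), with clean reads 0.26 (adjusted p = 0.127), and without Ang OE replicate 1 it was 0.23 (adjusted p = 0.163). mir-206 was called higher by 0.84 ± 0.26 (adjusted p = 0.0147 by edgeR), and Ang OE replicate 2, at 2.11 CPM, lay among the Ctrl libraries. Without Ang OE replicate 1 its difference was 0.28 (adjusted p = 0.463 by edgeR), with total miRNA reads 0.58 (adjusted p = 0.0817), and in a fit of Ang OE and Ctrl alone 0.79 (adjusted p = 0.0526). mir-133a was lower in both Ang OE libraries, at 0.186 and 0.178 CPM, than in both Ctrl libraries. The log2 fold change of the summed hairpins was -1.49 ± 0.61 and was not called. mir-133a passed the filter on low counts only through Ctrl and CC, so this value is a description, with no p. It rests on 6 reads in each Ang OE library.

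Other lists moved in the same cells. All 4 testis germ cell hairpins tested were called higher, where 129 of 533 hairpins (24.2%) were called higher on the TMM scale. The list summed to 2045 and 1932 CPM in Ang OE against 1050 and 1017 CPM in Ctrl. The sum is nearly all mir-34c, at 1956 and 1834 CPM in Ang OE against 980 and 940 CPM in Ctrl. mir-34b went from 59.8 and 65.7 CPM to 70.2 and 81.6 CPM, mir-871 rests on 5 and 7 reads in Ctrl and 13 and 20 in Ang OE, and mir-741 and mir-880 had too few reads for a test. In the same libraries mir-126a, known from endothelial cells, went from 107 and 103 CPM to 219 and 194 CPM and rose. Of the 4 mesenchymal hairpins, which mark cells in which mir-143 and mir-145 are also known, 1 rose and 1 fell on the TMM scale. Neither epithelial hairpin with enough reads was called, and the epithelial list summed to at most 2.38 CPM in any TM4 library. Among the other muscle miRNAs 1 rose, mir-22 by 0.30 (adjusted p = 0.0149 by edgeR), whose mean CPM was 1.02 times that of Ctrl, and 2 fell, mir-486a and mir-486b by 0.38 each (adjusted p = 0.00499 and 0.00493). Their CPM was 894 and 884 in Ang OE against 1433 and 1373 in Ctrl for mir-486a.

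Ang OE and CC were also compared directly, since each shares the Ctrl libraries with the other. mir-143 was 2.19-fold higher in Ang OE than in CC (log2 fold change 1.13 ± 0.16, adjusted p = 2.58e-05 by edgeR), with 93152 and 127843 CPM against 49978 and 72214. mir-143 was called under the other tests, scalings, filters and batch settings tried, at 0.85 to 1.13, some of which left its reads unchanged. With 1 library left out it differed by 0.83 to 1.41. It was the only one of the 5 members tested that was called, where 221 of 533 hairpins (41.5%) were called, 140 of them higher (26.3%) and 81 lower (15.2%). With total miRNA reads 83 were higher and 143 lower, and with clean reads 117 and 105. mir-145a differed by 0.21 ± 0.11 (adjusted p = 0.124 by edgeR), and by -0.05 with total miRNA reads. After ComBat-seq on the replicate number it was called (adjusted p = 0.0471 by edgeR). mir-206 differed by -0.32 ± 0.24 (adjusted p = 0.302 by edgeR), by 0.03 without Ang OE replicate 2 and by -0.89 without Ang OE replicate 1 (adjusted p = 0.0153). mir-133a differed by -1.51 ± 0.62 and was not called, a description only for the same reason as against Ctrl. Among the other muscle miRNAs mir-1b, with 8 to 24 reads in each TM4 library, was called higher in Ang OE, by 1.31 ± 0.50 (adjusted p = 0.0469 by edgeR).

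**Figure D4:**
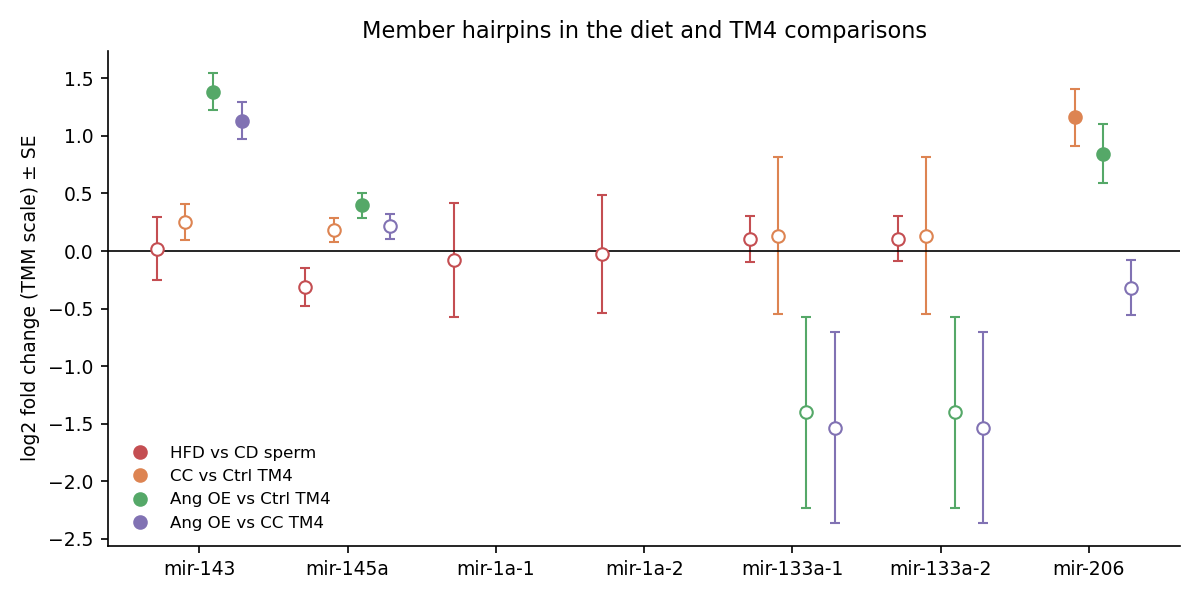
Log2 fold changes of the member hairpins with their SE (whiskers) in the diet comparison and the 3 TM4 comparisons, on the TMM scale. Filled points passed an adjusted p under 0.05, open points did not, and hairpins with too few reads have no point. mir-143 is filled for Ang OE against Ctrl (1.38) and against CC (1.13), and mir-206 for CC (1.16) and Ang OE (0.84) against Ctrl.

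Sperm and TM4 cells were last set side by side without diet or treatment, CD sperm against Ctrl cells. The kind of sample and its handling cannot be told apart here. mir-133a was far higher in sperm, 34.4 CPM on average against 0.613, a ratio of 56.1 (log2 fold change of mir-133a-1 7.15 ± 0.29 with TMM and 5.83 with total miRNA reads). Without either Ctrl library the TMM value was 6.20 and 6.35. mir-1a had 69 reads in the CD libraries together and 0 in Ctrl, which makes it at least 37.9-fold higher in CPM, with 3 reads over the Ctrl group as the floor. mir-206 was 26.3-fold higher in CPM in Ctrl than in CD sperm, 130 reads against 3, with an exact 95% interval of 8.79 to 129 for counting error alone. It passed the filter on low counts only through Ctrl, with 52 and 78 reads there against 1, 2 and 0 in CD, so its fitted value is given as a description, with no p. That log2 fold change was -3.31 ± 0.63 with TMM and -4.59 with total miRNA reads, and from -4.50 without CD replicate 2 to -2.77 without CD replicate 3. With TMM 5 of the 7 members were called higher in sperm and 1 lower, where 455 of 590 hairpins (77.1%) were called, 240 of them higher (40.7%) and 215 lower (36.4%). The 5 stand for 3 measurements, since the mir-133a hairpins have nearly equal counts, as do the mir-1a hairpins. The mir-1a and mir-133a hairpins passed the filter only through CD, and mir-206 only through Ctrl, so the count of members called is a description and nothing is read from it. With total miRNA reads 194 hairpins were higher and 342 lower, and with clean reads without rRNA 187 and 354.

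For mir-143 the direction between sperm and TM4 cells flips with the scaling. With TMM it was higher in CD sperm by 1.05 ± 0.20 (adjusted p = 0.00143 by edgeR), with total miRNA reads it differed by -0.29 (adjusted p = 0.139) and with clean reads without rRNA by -0.52 (adjusted p = 0.0366). Without Ctrl replicate 1 or 2 the TMM value was 0.24 and 0.11, with adjusted p = 0.444 and 0.713. Total miRNA reads moved the median of all hairpins by -1.34 on the log2 scale against TMM, and clean reads by -1.57. Relative to the median of all hairpins, mir-143 was at 1.18 and mir-145a at -0.05 with TMM. A change of library size moves each hairpin and the median alike, so this distance is nearly the same on the other scales by construction. The difference of mir-145a itself was -0.18 ± 0.15 with TMM (adjusted p = 0.279 by edgeR) and -1.52 with total miRNA reads (adjusted p = 3.02e-05).

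**Figure D5:**
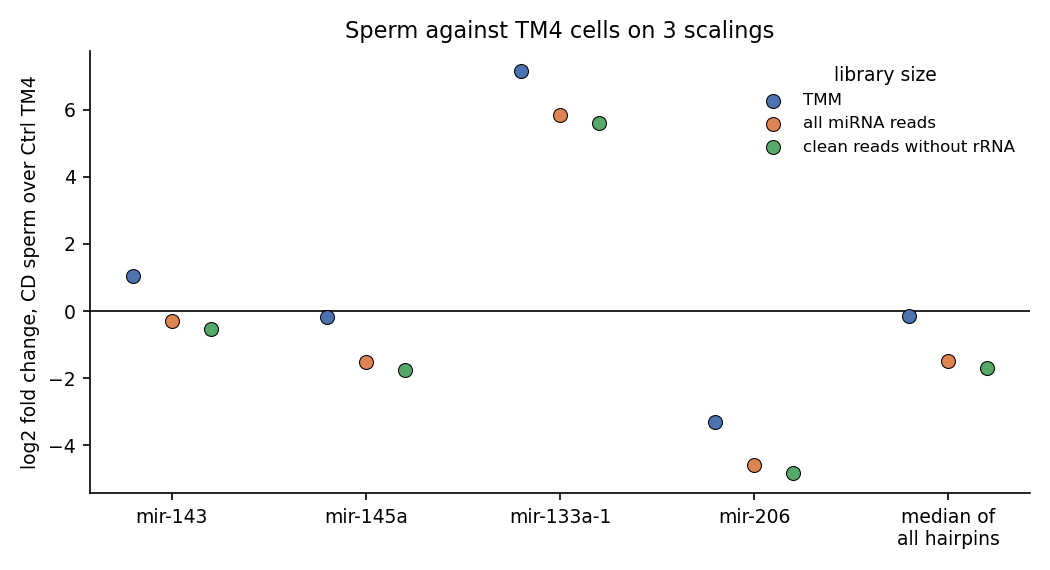
Log2 fold change of CD sperm over Ctrl TM4 cells for 4 members and the median of all hairpins tested, under 3 choices of library size. mir-143 lies above 0 with TMM (1.05) and below it with total miRNA reads (-0.29) and clean reads without rRNA (-0.52), while mir-133a-1 stays above 0 and mir-206 below 0 on all 3.

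The other muscle miRNAs did not share 1 direction between the samples. mir-486a and mir-486b were called higher in sperm, mir-22 and mir-378a lower, and mir-1b was not called. For mir-22 the CPM was 68491 to 81440 in TM4 cells against 14105 to 22187 in sperm, and for mir-378a 2790 to 4138 against 552 to 660. The mesenchymal list summed to 15607 to 19343 CPM in TM4 cells against 1635 to 2370 CPM in sperm. With TMM 4 of its 4 hairpins were called lower in sperm, and 5 of the 5 epithelial hairpins higher. Of all 590 hairpins, 36.4% were called lower and 40.7% higher. mir-200a, mir-200b and mir-429 had at most 3 reads in a Ctrl library and passed the filter only through CD. The epithelial count is therefore a description and nothing is read from it.

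Outside the members, the hairpins with the most similar profile over all 12 libraries were named by the root mean square difference of centred log2(CPM + 1), among 261 hairpins with a mean of at least 10 CPM. For mir-143 they were mir-26b (0.22), mir-32 (0.30) and mir-15a (0.40), where the median of all candidates was 1.33. For mir-145a they were mir-24-1 (0.20), let-7e (0.20) and mir-130a (0.22), with a median of 1.13. For mir-133a they were mir-223 (0.22), known from white blood cells, mir-3473e (0.23) and mir-335 (0.24), with a median of 2.92. The added 1 CPM flattens differences among low levels, which for mir-133a touches the TM4 libraries. mir-1a reached at most 2.42 CPM and mir-206 at most 4.63 CPM in any library, so that the addition sets the shape of their profiles, and no similar hairpin is named for them.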

How the data were processed

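Small RNA libraries (TruSeq kit) of 6 sperm and 6 TM4 samples were used, and groups were taken from the sample labels. By the methods and the submitters' processing notes, the authors checked reads with FastQC 0.12.0, trimmed them with Trimmomatic 0.40 and annotated them with the SPORTS pipeline, which matches rRNA, tRNA and then miRNA databases; the notes name the build mm10. The values the authors deposited are estimated counts per hairpin, since the pipeline divided a read that matches several hairpins among them, and they were not normalized. Reads with and without a genome match were added.

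Member and marker lists were chosen with earlier results of these data known. Counts were rounded and tested with edgeR 4.0.16 in R 4.3.3 (quasi-likelihood test, TMM), keeping hairpins that reached 10 reads in 3 of the sperm libraries, in 2 of the TM4 libraries or, for sperm against cells, in 2 of the 5 CD and Ctrl libraries. TM4 groups shared a model of 6 libraries. Called means a Benjamini-Hochberg adjusted p under 0.05 over all hairpins tested. SE is the log2 fold change divided by the square root of F. Named by rule were all members, the listed other muscle miRNAs with the highest level, and the 3 nearest profiles of mir-143, mir-145a and mir-133a; those of mir-1a and mir-206 were left out for their low levels. Other muscle miRNAs at low levels, mir-133b and marker hairpins were named after their values were seen. Alternatives were DESeq2 1.42.0, total miRNA reads or clean reads without rRNA as library size, no filter or 100 reads, genome-matched reads, summed hairpins, each library left out, the replicate number as a block, ComBat-seq (sva 3.50.0) with the replicate number as batch, the compared groups alone and a model of all 12 libraries. The authors applied ComBat-seq to the cell line data for differences in sample preparation, and the sources used here do not name those batches, so the replicate number stood in for them and the values do not stand for a correction of the authors' batches. The test was checked on simulated counts. Tables were handled in pandas 2.3.3 under Python 3.11.15, tests of ratios in scipy 1.17.1 with numpy 2.4.6, and figures in matplotlib 3.10.9. Intervals and limits for a count of 0 cover counting error only. The longer fragments, tRNA reads and other classes were left out.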

Additional observations from a re-analysis of the deposited data

Results flagged for a closer look

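The effects of Ang OE and CC on mir-143, each against the same Ctrl libraries, differed by a test of the difference itself. The log2 fold change of Ang OE against CC was 1.13 ± 0.16 (adjusted p = 2.58e-05 by edgeR), with both Ang OE libraries above both CC libraries. No other member passed this test.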

How the results depend on the processing

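The diet comparison called 8 hairpins with DESeq2 against 0. CC against Ctrl called 0 to 26 hairpins with 1 library left out, 35 with the replicate block and 35 with ComBat-seq on the replicate number, against 22, and 0 to 1 members with 1 library left out. Ang OE against Ctrl called 1 member with total miRNA reads and 1 to 3 with 1 library left out, against 3. Ang OE against CC called 2 members with ComBat-seq and 1 to 2 with 1 library left out, against 1. CD sperm against Ctrl called 3 members with a filter of 100 reads, where fewer members were tested, and 4 to 6 with 1 library left out, against 6. In CPM of the clean reads without rRNA, mir-143 and mir-145a summed to 21004 in CD, 24327 in HFD, 70752 in Ang OE, 36477 in CC and 30509 in Ctrl, and mir-1a, mir-133a and mir-206 to 17.8, 21.9, 1.53 and 3.02 in CD, HFD, Ctrl and CC.

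Signs turned for values that had not been called, apart from mir-143 between sperm and TM4 cells. In the diet comparison mir-1a-1 was 0.0483 with total and 0.14 with clean reads, and -0.39 to 0.36 with 1 library left out. mir-1a-2 was 0.0179 with DESeq2, 0.0938 with total and 0.18 with clean reads, 0.0084 without a filter, and -0.33 to 0.44 with 1 library left out. mir-143 was -0.0002 with the replicate block and -0.14 to 0.33 with 1 library left out. In CC against Ctrl, mir-143 ranged from -0.0256 to 0.46 with 1 library left out, and mir-133a-1 and mir-133a-2 were -0.0017 with ComBat-seq. In Ang OE against CC, mir-145a was -0.0514 with total reads, and mir-206 ranged from -0.89 to 0.0252 with 1 library left out. In CD sperm against Ctrl, mir-143 was -0.29 with total and -0.52 with clean reads, and mir-145a 0.0377 with a filter of 100 reads. The cause was not tested.

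The replicate numbers did not pair the samples: deviations of same-numbered libraries correlated at -0.33, -0.17 and 0.06 in sperm and within ±0.05 in TM4 cells. With the replicate block the log2 fold change of mir-143 was 1.35 for Ang OE against Ctrl and 1.13 against CC, that of mir-206 1.15 for CC, and no member's call changed. Depth limits mir-1a, mir-206 in sperm and mir-133a in TM4 cells, which rest on 34, 3 and 25.3 reads a library at most. With 1 library left out of a TM4 pair, the lone library is assumed to vary like the other groups.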
